A study of Arabidopsis thaliana with 87 samples.

Results

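Small RNAs of 21 nt that match the transgene RUBY were described in leaves of 4-week-old Arabidopsis thaliana, kept at 22 °C under a day of 18 h and a night of 6 h. RUBY encodes the enzymes of betalain synthesis, so that tissue in which it is active turns red. The 21 nt reads were chosen by length alone, as those on the plus and on the minus strand of the transgene in each library. This gave 174 of the 1904 deposited values, 2 in each of 87 libraries, and none of them was at 0. They held 15762073 of the 20686831 RUBY reads of 18 to 28 nt, or 76.2%, against 10.4% for 22 nt, 3.71% for 20 nt and 2.20% for 24 nt. Values are reads per 1000000 mapped reads (RPM), and the share is 21 nt as a percentage of all 18 to 28 nt RUBY reads of a library.

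In 18 libraries RUBY was under ZmUBQ, a promoter named for maize ubiquitin, and in 69 under 35S, the broadly active cauliflower mosaic virus promoter. All plants carried RUBY, and a group without the transgene was not analysed here. The ZmUBQ libraries, all in the wild-type accession Col-0, were 7 of fully green and 7 of fully red leaves, with 4 labelled always red, from 3 transgenic events. In dcl1234, which is mutated in the DICER-LIKE genes DCL1 to DCL4, 35S RUBY gave 8 libraries labelled always red, from 2 events. In Col-0, 35S RUBY gave 2 libraries labelled always green, which both came from the event MK017, 9 of fully green leaves, 13 of green parts, 13 of red parts, 13 of fully red leaves and 11 labelled always red, from 11 events. The series' design text calls the 35S libraries of an event and colour biological replicates, and it is not stated whether each came from a separate plant, so p-values cover only how far libraries differ. The files name a different RUBY target for the 2 promoters, and the ZmUBQ samples are labelled in another style, so promoter, target and submission cannot be told apart.

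In plants, DICER-LIKE enzymes cut double-stranded RNA into small RNAs of fixed lengths. DCL4 makes 21 nt, DCL2 makes 22 nt and DCL3 makes 24 nt small RNAs. When a transgene transcript is copied into double-stranded RNA by an RNA-dependent RNA polymerase such as RDR6, dicing gives 21 nt siRNAs from both strands, and these guide ARGONAUTE proteins to cut the matching mRNA. Fragments of an mRNA that was never copied come from its own strand and have no preferred length. The length of the reads and their balance between strands are therefore the readouts described here. The files do not state which strand is that of the RUBY mRNA, and they give neither the read sequences nor the place along the transgene, so no sequence is shown. Transcripts of the DCL genes and leaf markers were not analysed here. In bulk leaf tissue, fewer cells with these small RNAs and fewer of them per cell cannot be told apart.

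Depth was uneven. The libraries held 0.905 to 31.4 M mapped reads (M, 1000000 reads), with a median of 15.4 M, and 77 to 1557794 reads of 21 nt. A count of 3 reads, the limit that a count of 0 allows, corresponded to 0.0955 to 3.32 RPM, below the lowest 21 nt level of 25.6 RPM. Under 8 M mapped reads were 6 libraries: 1 of fully green leaves (MK045 number 3), 1 of green parts (MK041 number 1), 3 of red parts (MK016 number 5, MK025 number 1 and MK044 number 3) and 1 of fully red leaves (MK044 number 3, with only 404 RUBY reads). In 3 pairs of libraries the counts agreed within sampling noise, but each pair came from 2 different events, so all libraries were counted separately.

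Across the 10 groups, the mean level of 21 nt reads spanned 44.0 to 69454 RPM. ZmUBQ fully green leaves held between 1586 and 22507 RPM, with a median of 8210. ZmUBQ fully red leaves held between 58.4 and 382 RPM, with a median of 78.4. The 4 ZmUBQ always red libraries held 25.6, 61.0, 116 and 120 RPM. The green ZmUBQ leaves did not overlap with either red class, and these red classes overlapped with each other. The dcl1234 always red libraries were the most even, between 38.0 and 49.6 RPM with a median of 44.5.

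Under 35S in Col-0, the 2 always green libraries held 57287 and 81621 RPM. Fully green leaves held between 15876 and 75254 RPM, with a median of 47258. Green parts ranged between 4631 and 62852 RPM, with a median of 30826. All 3 green classes overlapped. Red parts spread the most widely, between 903 and 62091 RPM with a median of 2517, and reached into the range of the green classes. Fully red leaves held between 85.1 and 2012 RPM, with a median of 348. Always red libraries held between 65.5 and 314 RPM, with a median of 215. As a part of all mapped reads, 21 nt RUBY reads made up 6.95% ± 1.72 in always green libraries, 4.37% ± 2.00 in fully green leaves and 0.0214% ± 0.00642 in always red libraries (SD, n = 2, 9 and 11).

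In most libraries 21 nt was the most frequent of the 11 lengths, on both strands. Summed over strands it came first in 84 of 87 libraries, and the other 3 were red ZmUBQ libraries with 24 nt on top. Among plus strand reads it came first in 79 of 87, and 5 of the 8 exceptions were dcl1234 libraries. More than 50% of the 21 nt reads lay on the minus strand in 72 of 87 libraries. Minus strand reads were more frequent among 21 nt reads than among all other lengths together in 84 of 87 libraries. The exceptions were red parts of MK016 number 5 and MK044 number 3 and the ZmUBQ always red library MK054 number 1.

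Fully green against fully red 35S leaves compares the 2 leaf colours. Reads of 21 nt rose to 43699 ± 20019 RPM in fully green leaves, against 686 ± 591 RPM in fully red leaves (SD, n = 9 and 13). On the log2(RPM + 1) scale, on which all folds of levels here are given, the level was 81.8-fold above that of fully red leaves (95% interval 40.4 to 166, adjusted exact permutation p = 3.32e-05). All 9 fully green libraries were above all 13 fully red ones, and all 9 pairs of the same event and label number showed the rise. The level of 100% of the 11 lengths passed the threshold, an adjusted p under 0.05, in this comparison, so the rise itself was common to every length. The share of 21 nt rose as well, to 78.2% ± 2.31 in fully green leaves against 51.9% ± 14.7 in fully red leaves. The difference of 26.3 percentage points (95% interval 16.2 to 36.7) had an adjusted permutation p of 0.000284, and of the 90.9% of lengths whose share passed, 21 nt was the 1 that rose while 9 fell.

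The difference in share was larger within the plus strand. Among plus strand reads, 21 nt made up 75.5% ± 1.70 in fully green leaves, against 39.8% ± 14.8 in fully red leaves (difference 35.7 points, adjusted permutation p = 0.000106). Among minus strand reads it made up 80.1% ± 2.64 in fully green leaves, against 75.4% ± 4.99 in fully red leaves (difference 4.69 points, adjusted permutation p = 0.0259). With 1 mean per event the minus strand difference was 6.09 points and did not pass (adjusted permutation p = 0.0582), and it was lost as well without the fully green library MK016 number 3 (4.39 points, adjusted permutation p = 0.0541) or MK043 number 1 (4.43 points, adjusted permutation p = 0.0521), and without event MK016, MK042 or MK045. The red leaves thus held minus strand reads that were mostly 21 nt long, beside plus strand reads of mixed length.

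The strand balance of 21 nt reads did not pass the test between fully green and fully red leaves. On the minus strand lay 60.2% ± 4.75 of them in fully green leaves, against 54.6% ± 11.1 in fully red leaves, a difference of 5.61 points (95% interval −1.28 to 13.4, adjusted permutation p = 0.197), with 5 of 9 pairs higher in green. By contrast, the minus strand share passed for 90.9% of the lengths, which were the 10 others, all higher in fully green leaves. For 24 nt it was 56.3% in fully green and 21.9% in fully red leaves, and for 25 nt 41.5% in fully green and 5.15% in fully red leaves. The fully red library MK044 number 3 had 15 of its 77 reads of 21 nt on the minus strand, or 19.5% (Wilson 95% interval 12.2 to 29.7), while the 12 others averaged 57.5% ± 3.46.

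Against its neighbouring lengths, 21 nt rose further than each. The number of 21 nt reads for each 22 nt read was 7.26 ± 0.264 in fully green leaves, against 5.01 ± 1.48 in fully red leaves, a 1.54-fold difference (adjusted permutation p = 0.00188). For each 24 nt read there were 35.5 ± 3.93 in fully green leaves, against 14.3 ± 8.84 in fully red leaves (3.19-fold, adjusted permutation p = 0.000877). For each 20 nt read there were 26.7 ± 5.51 in fully green leaves, against 8.70 ± 3.32 in fully red leaves (3.43-fold, adjusted permutation p = 7.24e-05). In each of these ratios all 9 fully green libraries were above all fully red ones. Relative to RUBY reads outside 21 to 24 nt, the rise of 21 nt was 5.86-fold (adjusted permutation p = 0.000133).

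Green against red parts compares the samples labelled as parts of 1 colour under 35S. Green parts held 28340 ± 17427 RPM of 21 nt and red parts 9558 ± 16974 RPM (SD, n = 13 each), 5.90-fold higher in green parts (95% interval 2.43 to 14.2, adjusted permutation p = 0.00239). The green part was higher in 12 of 13 pairs. Only MK016 number 5 went the other way, with 18657 RPM in its green part and 62091 RPM in its red part. In MK025 number 1 the parts were close, with 25153 RPM in the green part and 20987 RPM in the red part. Both of these red parts had under 8 M mapped reads, and the part of depth in their values was not tested. Without them the difference was 8.91-fold, and by the edgeR quasi-likelihood test on counts, with all libraries, it was 2.97-fold (adjusted p = 0.0281). The level of 100% of lengths passed in this comparison, and relative to RUBY reads outside 21 to 24 nt the 21 nt difference was 1.51-fold and did not pass (adjusted permutation p = 0.0616).

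The share of 21 nt was 77.3% ± 3.42 in green parts, against 72.6% ± 4.95 in red parts, a difference of 4.67 points (adjusted permutation p = 0.0235), and 54.5% of lengths passed, 21 nt as the 1 that was higher. With 1 mean per event this call was lost at 4.16 points (adjusted permutation p = 0.101), as it was without event MK041 (3.42 points) or MK043 (3.63 points). Within strands the values were as follows. Of plus strand reads, 74.4% ± 3.65 in green parts and 65.4% ± 9.68 in red parts were 21 nt (9.03 points, adjusted permutation p = 0.0101). This call too was lost with 1 mean per event (7.79 points, adjusted permutation p = 0.094) and without event MK041 (6.26 points, adjusted permutation p = 0.0722) or MK043 (7.07 points, adjusted permutation p = 0.0517). Of minus strand reads, 79.1% ± 3.36 in green parts and 78.1% ± 3.42 in red parts were 21 nt (difference 0.977 points, 95% interval −1.76 to 3.72, adjusted permutation p = 0.474). There were 7.51 ± 0.304 reads of 21 nt for each 22 nt read in green parts and 6.92 ± 0.478 in red parts, which was small (1.09-fold) but held in 13 of 13 pairs (adjusted permutation p = 0.00161). With 1 mean per event the ratio to 22 nt did not pass (1.08-fold, adjusted permutation p = 0.0821). The ratios to 20 nt (1.27-fold, adjusted permutation p = 0.137) and to 24 nt (1.08-fold, adjusted permutation p = 0.568) did not pass. The ratio to 20 nt did so without the green part of MK016 number 5 (log2 difference 0.43, adjusted permutation p = 0.0473) or the red part of MK025 number 1 (0.43, adjusted permutation p = 0.047).

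Strand balance was 61.7% ± 4.05 minus strand in green parts and 61.2% ± 5.09 in red parts for 21 nt (difference 0.512 points, 95% interval −3.22 to 4.24, adjusted permutation p = 0.834), while 81.8% of lengths passed, all of them higher in green parts. The 3 red parts under 8 M mapped reads had minus strand shares of 51.3%, 52.8% and 54.7%, below all 10 other red parts at 61.1% to 67.2%. The green part with the lowest depth likewise had the lowest value, 52.0%. Without libraries under 8 M mapped reads the difference between green and red parts was −1.17 points (adjusted permutation p = 0.373), the other way round. The part of depth in these strand values was not tested.

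Red parts against fully red leaves compares samples labelled as red parts with those labelled as fully red. Red parts had the higher level, with 9558 ± 16974 RPM in red parts and 686 ± 591 RPM in fully red leaves, and the red part was higher in 13 of 13 pairs. The difference was 7.79-fold (95% interval 3.13 to 19.5, adjusted permutation p = 0.00044), 4.66-fold without libraries under 8 M mapped reads, 5.15-fold without 2 red parts, MK016 number 5 and MK025 number 1, and 13.9-fold by edgeR on counts (adjusted p = 2.24e-06). Of the lengths, 63.6% passed in level. The share of 21 nt rose to 72.6% ± 4.95 in red parts against 51.9% ± 14.7 in fully red leaves (20.7 points, adjusted permutation p = 0.000133, 90.9% of lengths passing). Its share within the plus strand differed by 25.6 points (adjusted permutation p = 0.00024), and within the minus strand by 2.69 points, which did not pass (95% interval −0.705 to 6.13, adjusted permutation p = 0.183).

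Relative to its neighbours, 21 nt was also higher in red parts than in fully red leaves. The ratio to 22 nt was 6.92 ± 0.478 in red parts and 5.01 ± 1.48 in fully red leaves (1.46-fold, 13 of 13 pairs, adjusted permutation p = 0.00012). The ratio to 24 nt differed 3.53-fold (adjusted permutation p = 0.00012) and that to 20 nt 2.13-fold (adjusted permutation p = 0.000206). Of 21 nt reads, the part on the minus strand was 61.2% ± 5.09 in red parts and 54.6% ± 11.1 in fully red leaves, 6.63 points higher in red parts (95% interval 0.68 to 13.3, 12 of 13 pairs, adjusted permutation p = 0.0441), and 100% of lengths passed. This call was fragile. Leaving out the fully red library MK044 number 3 lowered the difference to 3.71 points (adjusted permutation p = 0.0719). It was also lost, at 6.14 to 6.64 points, on leaving out any of 10 red parts (MK016 numbers 3 and 4, MK040 numbers 1 and 2, MK041 numbers 1 and 2, MK042 number 3, MK043 numbers 1 and 2, MK045 number 3) or the fully red libraries MK025 number 1, MK041 number 1 or MK043 number 2.

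Fully green leaves against green parts compares samples labelled as fully green with those labelled as green parts. Fully green leaves held 43699 ± 20019 RPM of 21 nt and green parts 28340 ± 17427 RPM (SD, n = 9 and 13). The 1.78-fold difference did not pass (95% interval 0.929 to 3.43, adjusted permutation p = 0.0946), and 9.09% of lengths passed in level. Over the 9 pairs that share event and number, with the pair as a block, fully green leaves were 1.52-fold higher, in 8 of 9 pairs, and this passed (adjusted exact sign-flip permutation p = 0.0215). The share was 78.2% ± 2.31 in fully green leaves, against 77.3% ± 3.42 in green parts (adjusted permutation p = 0.554), and 18.2% of lengths passed. On the minus strand lay 60.2% ± 4.75 of 21 nt reads in fully green leaves, against 61.7% ± 4.05 in green parts (−1.53 points, adjusted permutation p = 0.501). Within pairs it was 2.33 points lower in fully green leaves, lower in 8 of 9 pairs (adjusted exact sign-flip permutation p = 0.0273). Strand shares passed for 0% of the 11 lengths without the pairing, also at an unadjusted permutation p under 0.05. For each 24 nt read there were 35.5 ± 3.93 reads of 21 nt in fully green leaves, against 42.9 ± 8.28 in green parts (0.838-fold, lower in 9 of 9 pairs, adjusted permutation p = 0.0245), which did not pass without the fully green library MK040 number 2 (adjusted permutation p = 0.0525), without libraries under 8 M mapped reads (adjusted permutation p = 0.0582) or with 1 mean per event (adjusted permutation p = 0.136).

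Fully red leaves against always red libraries compares 2 labels of red tissue. The level was 686 ± 591 RPM in fully red leaves and 214 ± 64.2 RPM in always red libraries (SD, n = 13 and 11), 2.36-fold higher in fully red leaves (95% interval 1.27 to 4.38, adjusted permutation p = 0.0158). Of the 13 fully red libraries 7 lay above all always red ones, and 72.7% of lengths passed in level. With 1 mean per event the level did not pass (log2 difference 1.08, adjusted permutation p = 0.19), and neither did the level relative to RUBY reads outside 21 to 24 nt (1.19-fold, adjusted permutation p = 0.537). Shares passed for 0% of lengths, also at an unadjusted permutation p under 0.05, with 51.9% ± 14.7 in fully red leaves and 47.6% ± 5.15 in always red libraries for 21 nt (adjusted permutation p = 0.449).

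The minus strand share of 21 nt was 54.6% ± 11.1 in fully red leaves and 53.7% ± 1.70 in always red libraries (0.867 points, adjusted permutation p = 0.963). It passed for 0% of lengths, and for 4 at an unadjusted permutation p under 0.05. This hung on 1 library. Without the fully red library MK044 number 3, fully red leaves had a minus strand share 3.79 points higher than always red libraries (adjusted permutation p = 0.0074). Of the 13 fully red libraries, 8 lay above the highest always red value of 56.0%, and 1, MK044 number 3, lay below the lowest of 50.5%. The share of 21 nt within the minus strand was 75.4% ± 4.99 in fully red leaves and 78.6% ± 0.977 in always red libraries (−3.18 points, adjusted permutation p = 0.0657). That difference passed on leaving out any of 6 fully red libraries (MK016 numbers 3 and 4, MK041 numbers 1 and 2, MK043 numbers 1 and 2), at −3.61 to −3.46 points. The ratios to 20, 22 and 24 nt did not pass (adjusted permutation p = 0.936, 0.568 and 0.443).

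Always green against always red libraries compares the 2 labels of constant colour, with 2 libraries of the single event MK017 on the green side. Their 69454 ± 17207 RPM of 21 nt were 337-fold above the 214 ± 64.2 RPM of always red libraries (95% interval 146 to 624.9, adjusted exact permutation p = 0.0197). The difference in level passed for 100% of lengths. The share was 74.9% ± 3.95 in always green and 47.6% ± 5.15 in always red libraries (27.3 points, adjusted exact permutation p = 0.0249, 72.7% of lengths passing). Leaving out either always green library ended both calls (adjusted exact permutation p = 0.103 for the level, 0.136 without number 1 and 0.133 without number 2 for the share), at differences of 8.14 without number 1 and 8.65 without number 2 on the log2 scale and of 24.5 points without number 1 and 30.1 points without number 2. As 1 mean per event, 1 against 6, no p below 0.143 is possible.

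The strand balance of 21 nt was nearly equal between them, 53.7% ± 0.417 minus strand in always green and 53.7% ± 1.70 in always red libraries (difference 0.0359 points, 95% interval −2.45 to 3.06, adjusted exact permutation p = 0.976). All 10 other lengths passed, which made 90.9% of lengths, and each was higher in always green libraries. For 25 nt, for example, the minus strand share was 32.7% in always green and 2.34% in always red libraries. Within the minus strand, 21 nt made up 76.3% ± 4.17 of reads in always green and 78.6% ± 0.977 in always red libraries (adjusted exact permutation p = 0.183). Within the plus strand it made up 73.3% ± 3.73 in always green and 32.8% ± 4.62 in always red libraries (40.4 points, adjusted exact permutation p = 0.0259). In always red libraries, then, 53.7% of 21 nt reads but 13.6% ± 2.97 of all other reads lay on the minus strand. For each 22 nt read there were 7.29 ± 0.0294 reads of 21 nt in always green and 4.44 ± 0.375 in always red libraries (1.68-fold), for each 24 nt read 31.5 ± 0.988 in always green and 9.40 ± 2.49 in always red libraries (3.61-fold), and the ratio to 20 nt differed 2.52-fold (adjusted exact permutation p = 0.0243 for each of the 3 ratios). Leaving out either always green library ended the calls on the 3 ratios (adjusted exact permutation p = 0.122) and on the share within the plus strand (0.143 without number 1 and 0.154 without number 2).

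Always green against fully green libraries gave no call on the 21 nt reads. The level was 69454 ± 17207 RPM in always green and 43699 ± 20019 RPM in fully green libraries (1.74-fold, 95% interval 0.635 to 4.08, adjusted exact permutation p = 0.203), and 9.09% of lengths passed. The share was 74.9% ± 3.95 in always green and 78.2% ± 2.31 in fully green libraries (adjusted exact permutation p = 0.0895, 27.3% of lengths passing). On the minus strand lay 53.7% ± 0.417 of 21 nt reads in always green and 60.2% ± 4.75 in fully green libraries (−6.45 points, 95% interval −16.2 to 1.47, adjusted exact permutation p = 0.158, 9.09% of lengths passing). The fully green leaves of event MK040 were the closest to the always green event in balance, at 52.5% and 54.7%. Without MK040 the difference was −8.32 points and passed (adjusted exact permutation p = 0.0464), and leaving out its number 2 alone gave −7.40 points (adjusted exact permutation p = 0.0386). Without MK040 the share also passed, at −4.25 points (adjusted exact permutation p = 0.0476).

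In always red plants of the dcl1234 genotype the level of 21 nt reads was lower than in always red Col-0 plants. The dcl1234 libraries held 44.0 ± 4.83 RPM of 21 nt and Col-0 always red libraries 214 ± 64.2 RPM (SD, n = 8 and 11). This was 4.53-fold lower in dcl1234 (95% interval 3.34 to 5.92, adjusted exact permutation p = 0.000109), and all 8 dcl1234 libraries lay below all 11 Col-0 ones. In level, 81.8% of lengths passed, and 21 nt was the 1 that fell while 8 rose. Reads of 24 nt were 1.60-fold higher in dcl1234 (adjusted exact permutation p = 0.0144), those of 20 nt 1.49-fold higher (adjusted exact permutation p = 0.0238), and those of 22 nt 1.19-fold lower, which did not pass (adjusted exact permutation p = 0.253). From 25 to 28 nt the means were higher in dcl1234 on both strands, for 25 nt on the minus strand at 1.61 RPM against 0.374 RPM in Col-0. For 20 and 24 nt the higher means lay on the plus strand only. For 24 nt, plus strand means were 35.6 RPM in dcl1234 and 21.3 RPM in Col-0, and minus strand means 0.885 RPM in dcl1234 and 2.96 RPM in Col-0. For 20 nt, plus strand means were 34.7 RPM in dcl1234 and 21.5 RPM in Col-0, and minus strand means 3.23 RPM in dcl1234 and 5.59 RPM in Col-0. What else the mapped reads held was not analysed here. Relative to RUBY reads outside 21 to 24 nt, 21 nt was 7.84-fold lower in dcl1234 (adjusted exact permutation p = 0.000175).

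The fall was steeper on the minus strand. Minus strand 21 nt reads were at 6.19 ± 0.540 RPM in dcl1234 and 115 ± 34.7 RPM in Col-0, 15.3-fold lower. Plus strand 21 nt reads were at 37.8 ± 4.70 RPM in dcl1234 and 99.0 ± 29.8 RPM in Col-0, 2.45-fold lower. Minus strand reads accordingly made up 14.2% ± 1.71 of 21 nt reads in dcl1234 and 53.7% ± 1.70 in Col-0 (−39.5 points, 95% interval −41.2 to −37.8, adjusted exact permutation p = 0.000125). Strand shares passed for 81.8% of lengths, 7 lower and 2 higher. For other lengths together the minus strand share was 3.71% ± 1.22 in dcl1234 and 13.6% ± 2.97 in Col-0.

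A trace of a 21 nt peak stayed visible in dcl1234. The share was 11.3% ± 0.380 in dcl1234 and 47.6% ± 5.15 in Col-0 (−36.2 points, adjusted exact permutation p = 0.000133, 100% of lengths passing), and 21 nt still came first of the 11 lengths in 8 of 8 dcl1234 libraries. On the plus strand the lengths were nearly level, with 10.2% ± 0.395 at 21 nt in dcl1234 against 32.8% ± 4.62 in Col-0 (−22.6 points, adjusted exact permutation p = 0.000106), and 21 nt came first in 3 of 8 dcl1234 libraries, 22 nt in 4 and 24 nt in 1. On the minus strand 21 nt made up 33.9% ± 6.27 in dcl1234 and 78.6% ± 0.977 in Col-0 (−44.7 points, adjusted exact permutation p = 0.000106) and came first in all 8 dcl1234 libraries. For each 22 nt read there were 1.15 ± 0.0928 reads of 21 nt in dcl1234 and 4.44 ± 0.375 in Col-0, 3.80-fold lower. The ratio to 24 nt was 1.21 ± 0.0675 in dcl1234 and 9.40 ± 2.49 in Col-0, 7.27-fold lower, and that to 20 nt was 1.16 ± 0.0644 in dcl1234 and 8.27 ± 1.72 in Col-0, 6.73-fold lower (adjusted exact permutation p = 0.000119 for each ratio). The dcl1234 side rests on 2 events. As 1 mean per event, 2 against 6, no p below 0.0357 is possible, and level, share and strand balance did not pass after adjustment (adjusted exact permutation p = 0.0873, 0.101 and 0.0982).

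Under ZmUBQ, fully green leaves differed from fully red leaves in level, share and strand balance of 21 nt alike. The level was 9455 ± 7352 RPM in fully green and 128 ± 115 RPM in fully red leaves (SD, n = 7 each), 65.7-fold higher in green (95% interval 24.2 to 173, 7 of 7 pairs, adjusted exact permutation p = 0.00188), with 72.7% of lengths passing. The narrowest pair was MK054 number 3, with 1586 RPM in the green leaf and 382 RPM in the red one, and the widest was MK055 number 3, with 22507 RPM in the green leaf and 72.0 RPM in the red one. Without event MK054 the difference was 115-fold, and without MK055 it was 33.7-fold. The share was 80.1% ± 1.20 in fully green and 38.6% ± 14.2 in fully red leaves (41.5 points, adjusted exact permutation p = 0.00188, 90.9% of lengths passing, 21 nt as the 1 that rose). The share within the minus strand was 81.6% ± 1.42 in fully green and 49.2% ± 15.2 in fully red leaves (32.4 points, adjusted exact permutation p = 0.002). Within the plus strand it was 78.1% ± 0.871 in fully green and 32.3% ± 13.5 in fully red leaves (45.8 points, adjusted exact permutation p = 0.002).

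The minus strand share of 21 nt was 58.8% ± 1.57 in ZmUBQ fully green and 50.05% ± 3.92 in ZmUBQ fully red leaves (8.73 points, 95% interval 5.17 to 12.2, 7 of 7 pairs, adjusted exact permutation p = 0.00179), and all 7 green libraries lay above all 7 red ones. Strand shares passed for 90.9% of lengths. Of the ratios to 20, 22 and 24 nt, that to 24 nt differed the most. For each 24 nt read there were 37.5 ± 7.54 reads of 21 nt in fully green and 2.99 ± 2.08 in fully red leaves (15.5-fold). In the fully red leaves of event MK056 this ratio was 0.864 and 0.940, so that 24 nt outnumbered 21 nt. For each 22 nt read there were 8.78 ± 0.312 reads of 21 nt in fully green and 4.11 ± 1.71 in fully red leaves (2.35-fold), and for each 20 nt read 31.1 ± 3.02 in fully green and 8.10 ± 5.03 in fully red leaves (4.54-fold, adjusted exact permutation p = 0.00161 for each ratio). Without event MK055 the differences in share (39.3 points) and in strand balance (8.80 points) did not pass (adjusted exact permutation p = 0.0524 and 0.0523). With 1 mean for each of 3 events no p below 0.1 is possible.

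ZmUBQ against 35S in fully green leaves gave a lower level but a nearly equal make-up. ZmUBQ leaves held 9455 ± 7352 RPM of 21 nt and 35S leaves 43699 ± 20019 RPM (SD, n = 7 and 9), 5.79-fold lower under ZmUBQ (95% interval 2.61 to 13.0, adjusted exact permutation p = 0.000744), and 100% of lengths passed, all lower. Without event MK055 it was 10.5-fold lower. Relative to RUBY reads outside 21 to 24 nt the ratio was 1.02 (adjusted exact permutation p = 0.936). The share was 80.1% ± 1.20 under ZmUBQ and 78.2% ± 2.31 under 35S (1.86 points, adjusted exact permutation p = 0.0865, 45.5% of lengths passing), and without event MK016 it passed at 2.38 points (adjusted exact permutation p = 0.0475), or without its number 3 alone at 2.15 points (adjusted exact permutation p = 0.037). Strand balance was close, with 58.8% ± 1.57 on the minus strand under ZmUBQ and 60.2% ± 4.75 under 35S (−1.40 points, 95% interval −5.51 to 2.67, adjusted exact permutation p = 0.534, 18.2% of lengths passing). A small difference lay in the ratio to 22 nt, 8.78 ± 0.312 under ZmUBQ and 7.26 ± 0.264 under 35S (1.21-fold, adjusted exact permutation p = 0.000393), with all 7 ZmUBQ libraries above all 9 of 35S. With 1 mean per event it did not pass (adjusted exact permutation p = 0.0536). Within the plus strand 21 nt made up 78.1% ± 0.871 under ZmUBQ and 75.5% ± 1.70 under 35S (adjusted exact permutation p = 0.0035, 0.0582 with 1 mean per event and 0.0503 without event MK055).

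In fully red leaves the ZmUBQ and 35S libraries differed in level and, on the minus strand, in make-up. The level was 128 ± 115 RPM under ZmUBQ and 686 ± 591 RPM under 35S (SD, n = 7 and 13), 4.65-fold lower under ZmUBQ (95% interval 2.04 to 10.6, adjusted exact permutation p = 0.00374), and 90.9% of lengths passed. Taken as 1 mean per event it did not pass (adjusted exact permutation p = 0.0982), nor did it relative to RUBY reads outside 21 to 24 nt (1.26-fold lower, adjusted exact permutation p = 0.563). The share was 38.6% ± 14.2 under ZmUBQ and 51.9% ± 14.7 under 35S (−13.4 points, adjusted exact permutation p = 0.104, 27.3% of lengths passing). Without the 35S library MK044 number 3 it passed at −16.1 points (adjusted exact permutation p = 0.0304), and without the ZmUBQ library MK054 number 3 at −17.8 points (adjusted exact permutation p = 0.0295). Within the minus strand 21 nt made up 49.2% ± 15.2 under ZmUBQ and 75.4% ± 4.99 under 35S (−26.2 points, adjusted exact permutation p = 0.000155), a difference that did not pass with 1 mean per event (−25.4 points, adjusted exact permutation p = 0.0582). The ratio to 24 nt was 2.99 ± 2.08 under ZmUBQ and 14.3 ± 8.84 under 35S (4.70-fold lower, adjusted exact permutation p = 0.00176, and 0.136 with 1 mean per event). Of 21 nt reads, 50.05% ± 3.92 were on the minus strand under ZmUBQ and 54.6% ± 11.1 under 35S (−4.52 points, adjusted exact permutation p = 0.426, 27.3% of lengths passing). It was −7.45 points and passed without the 35S library MK044 number 3 (adjusted exact permutation p = 0.00183).

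In always red libraries the level, the share and the minus strand share of 21 nt were all lower under ZmUBQ. The level was 80.6 ± 45.5 RPM under ZmUBQ and 214 ± 64.2 RPM under 35S (SD, n = 4 and 11), 2.92-fold lower under ZmUBQ (95% interval 1.61 to 5.47, adjusted exact permutation p = 0.0106, 90.9% of lengths passing), and 1.38-fold lower relative to RUBY reads outside 21 to 24 nt, which did not pass (adjusted exact permutation p = 0.148). The share was 31.8% ± 11.3 under ZmUBQ and 47.6% ± 5.15 under 35S (−15.8 points, adjusted exact permutation p = 0.0109, 54.5% of lengths passing). Their minus strand share was 46.4% ± 4.83 under ZmUBQ and 53.7% ± 1.70 under 35S (−7.29 points, adjusted exact permutation p = 0.00537, 72.7% of lengths passing). In the 4 ZmUBQ libraries it was 39.7%, 46.9%, 47.9% and 51.1%, of which the highest alone reached the 35S range of 50.5% to 56.0%. Within the minus strand 21 nt made up 38.1% ± 15.3 under ZmUBQ and 78.6% ± 0.977 under 35S (−40.5 points, adjusted exact permutation p = 0.0022), with no overlap between the groups. The ratio to 24 nt was 1.76 ± 1.18 under ZmUBQ and 9.40 ± 2.49 under 35S (5.97-fold lower, adjusted exact permutation p = 0.00176), that to 20 nt was 1.60-fold lower (adjusted exact permutation p = 0.0264) and that to 22 nt 1.27-fold lower (adjusted exact permutation p = 0.0492). The call on the ratio to 20 nt was lost without the ZmUBQ library MK054 number 1 (log2 difference −0.31) or MK056 number 2 (−0.76), and that on the ratio to 22 nt without either of these (−0.15 without MK054 number 1 and −0.30 without MK056 number 2) or without any 35S always red library other than those of MK010 and MK034 number 2. The ZmUBQ always red libraries came from 2 events, and with 1 mean per event no p below 0.0357 is possible, so that level, share and strand balance did not pass (adjusted exact permutation p = 0.0873, 0.101 and 0.0982).

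Whether the green to red difference itself differed between ZmUBQ and 35S libraries was tested over pairs of a fully green and a fully red library. Each pair was of 1 event and number, with 7 pairs of ZmUBQ and 9 of 35S. These came from 3 ZmUBQ events and 6 35S events. Pairs of 1 event were permuted as separate units, although the promoter belongs to the event, so the p-values cover only how far pairs differ. The test cannot tell promoter, target and submission apart. The pairs share a transgenic line, but deviations correlated above 0.1 in only 3 of 7 pairs of ZmUBQ and 4 of 9 of 35S, and 4 of the 13 fully red 35S libraries have no partner and were left out. The fold in level was 65.7 under ZmUBQ and 61.3 under 35S, a log2 difference of 0.10 (95% interval −1.64 to 1.76, adjusted exact permutation p = 0.908). The share differed by 41.5 ± 14.5 points under ZmUBQ and 22.2 ± 15.9 points under 35S, 19.4 points more under ZmUBQ (95% interval 2.56 to 35.1, adjusted exact permutation p = 0.0476). With all 13 fully red libraries the 35S difference in share was 26.3 points, nearer to that of ZmUBQ. The ratio to 22 nt changed 2.35-fold under ZmUBQ and 1.40-fold under 35S (log2 difference 0.74, adjusted exact permutation p = 0.0476), and the ratio to 24 nt changed 15.5-fold under ZmUBQ and 2.65-fold under 35S (log2 difference 2.55, adjusted exact permutation p = 0.0188). The calls on the share and on the ratio to 22 nt were near the threshold, and leaving out 13 of the 16 pairs, each in turn, ended each of them (adjusted exact permutation p up to 0.105). The 3 pairs that could be left out without ending them were MK044 number 3 of 35S and MK054 numbers 3 and 4 of ZmUBQ. The strand balance changed by 8.73 ± 4.67 points under ZmUBQ and 5.30 ± 14.9 points under 35S (adjusted exact permutation p = 0.826). Without the 35S pair MK044 number 3 the ZmUBQ change was larger by 8.11 points and passed (adjusted exact permutation p = 0.0138).

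Events spread unevenly within a class. Mean levels of the highest and lowest event differed 22.1-fold in red parts, 14.9-fold in fully red leaves, 10.1-fold in green parts and 3.86-fold in fully green leaves of 35S, and 2.13-fold in 35S always red libraries. These folds include the spread between libraries of an event. In red parts the highest event, MK016, ranged between 2517 and 62091 RPM, and the lowest, MK042, was 1 library. Over the 4 events with more than 1 library, the test of level by event did not pass in red parts (exact permutation p = 0.181) or fully red leaves (exact permutation p = 0.133). Events with 1 library, such as MK042 in red parts and MK044 and MK045 in fully red leaves, were not in this test, although they enter the folds above. The ZmUBQ events differed 3.85-fold in fully green leaves, 4.07-fold in fully red leaves and 1.28-fold in always red libraries, and the 2 dcl1234 events 1.02-fold. MK040 was the highest event in fully green leaves (61256 RPM, n = 2) and also in green parts (52993 RPM, n = 2). In fully red leaves the highest were the single MK045 library (1270 RPM) and MK040 (1152 RPM, n = 2). MK044 was the lowest in fully green leaves (15876 RPM), green parts (5229 RPM) and fully red leaves (85.1 RPM), with 1 library in each. MK044 always red libraries held 186 ± 10.2 RPM (n = 2), more than its fully red library. That fully red library had only 0.905 M mapped reads and 77 reads of 21 nt. It sets the low end of the 14.9-fold range in fully red leaves, where the next lowest event was MK025 (249 RPM, 1 library).

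MK016 was the event with the most libraries. Its 21 nt level was 48546 ± 18896 RPM in fully green leaves, 32976 ± 12452 in green parts, 22974 ± 33889 in red parts, 1088 ± 847 in fully red leaves (SD, n = 3 each) and 299 ± 22.0 in always red libraries (n = 2). Its share of 21 nt was 79.3% ± 1.26 in fully green leaves, 77.3% ± 4.96 in green parts, 76.1% ± 3.12 in red parts, 58.7% ± 8.23 in fully red leaves and 45.6% ± 2.57 in always red libraries. On the minus strand lay 62.9% ± 1.47 of 21 nt reads in fully green leaves, 65.1% ± 0.945 in green parts, 60.5% ± 6.76 in red parts, 59.9% ± 3.49 in fully red leaves and 53.4% ± 0.0198 in always red libraries. The red parts stand out by their spread, since number 5 held 62091 RPM while numbers 3 and 4 held 2517 and 4313 RPM.

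In green tissue the strand balance of MK040 and that of MK016 lay apart. In fully green leaves the minus strand share was 52.5% and 54.7% in MK040 and 61.3%, 63.1% and 64.2% in MK016, and differences between these events held 93.8% of the sum of squares, although 2 against 3 libraries allow no exact permutation p below 0.1. In green parts the same events gave 56.4% and 58.8% in MK040 and 64.4%, 64.8% and 66.2% in MK016. In fully red ZmUBQ leaves the share of 21 nt was 56.1% ± 13.1 in MK054 (n = 2), 35.6% ± 4.80 in MK055 (n = 3) and 25.5% ± 1.35 in MK056 (n = 2). Events held 81.7% of the sum of squares there, which did not pass after adjustment (exact permutation p = 0.019, adjusted p = 0.444). Permutation of event labels over 27 tests of level, share and strand balance gave 0 calls after adjustment, with 1 test at an unadjusted permutation p under 0.05. On ranks, 0 passed after adjustment and 2 had an unadjusted permutation p under 0.05. The smallest possible exact permutation p was 0.333 in ZmUBQ always red libraries and 0.1 in 35S fully green leaves, so tests in these groups could not pass. It was 0.0179 in dcl1234 and 0.00952 in ZmUBQ fully green and in ZmUBQ fully red leaves. The lack of calls therefore does not show that events are alike.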

How the data were processed

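Small RNA libraries had been made with the TruSeq Small RNA kit from TRIzol-extracted leaf RNA, per the labels' protocols. The deposited files give, per library, read counts of each length and strand that matched the RUBY transgene, and the number of mapped reads, per the file headers. The submitters' processing notes name TAIR 10, and the aligner and mismatch rules are not given in the sources used here. RPM was computed from the deposited counts as count divided by mapped reads, times 1000000, and 10 absent values in 4 files, none of them of 21 nt, were set to 0.

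Groups came from the labels. Differences in means of log2(RPM + 1), with a pseudocount of 1 RPM, of shares and of log2 ratios of RPM + 1 were tested by two-sided permutation of libraries, exact where a group had under 10 libraries and otherwise with 100000 resamples, whose smallest p is 1e-05. Benjamini-Hochberg adjustment ran over 132 tests (11 lengths in 12 comparisons) separately for level, share and minus strand share, over 36 for ratios, 24 for shares within a strand, 5 for promoter by colour and 27 for events, with a threshold of 0.05. Comparisons share groups, such as fully red leaves and always red libraries, and are not independent. Levels of each strand were not tested. Python 3.11.15, numpy 2.4.6, scipy 1.17.1, R 4.3.3 and edgeR 4.0.16 were used. Only the permutation test of the 21 nt level was checked on simulated data, with the same spread in both groups of a comparison. In the data the spread was unequal, with an SD of log2 RPM of 1.89 in red parts and 0.160 in dcl1234. Tests of shares, strand balance, ratios, pairs and events were not simulated. Intervals of counts and limits for a count of 0 cover counting error only.

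Libraries of 1 event with the same number come from the same transgenic line and were treated as pairs in a blocked alternative and in the test of promoter by colour. Deviations from group means correlated above 0.1 in 9 of 9 pairs of fully green leaves and green parts, with 0.319 as the lowest, in 4 of 9 pairs of fully green and fully red leaves, in 7 of 13 of green and red parts, in 10 of 13 of red parts and fully red leaves and in 3 of 7 of ZmUBQ. The 12 comparisons and the measures named were chosen by a fixed rule, with earlier results of these data known. Alternatives were a count model (edgeR), other pseudocounts, ranks, other denominators, 1 mean per event, omission of shallow libraries, averaging of near-identical ones and omission of each library, event or pair.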

Additional observations from a re-analysis of the deposited data

Results flagged for a closer look

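Of 50 checks for a library far from the rest of its group, 9 met the criterion, and chance flags about 1 in 20 groups. The flags came from MK040 number 2, MK073 number 3 and MK054 number 3, on overlapping measures. That rate therefore does not apply to their count. The checks do not cover every measure in all 10 groups, so the lack of a flag does not show that a library lay close to its group. The fully red 35S library MK044 number 3 had no flag. On its minus strand lay 19.5% of its 21 nt reads, with the others at 52.3% to 63.8%. In fully green 35S leaves, MK040 number 2 had the lowest share of 21 nt at 72.7%, with the others at 77.5% to 80.5%. The same library was lowest in the share of 21 nt among minus strand reads, at 73.6% with the others at 79.3% to 82.5%, and among plus strand reads, at 71.7% with the others at 74.6% to 77.6%. In dcl1234, 21 nt made up 11.1% of all plus strand reads in MK073 number 3, with the others at 9.89% to 10.3%.

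In fully red ZmUBQ leaves, MK054 number 3 stood above the others in 5 measures. Its 21 nt level was 382 RPM, with the others at 58.4 to 141 RPM. On the minus strand it held 211 RPM, with the others at 26.7 to 72.2 RPM, and on the plus strand 171 RPM, with the others at 31.6 to 68.8 RPM. Within the plus strand 21 nt made up 60.2% of its reads, with the others at 21.4% to 37.2%. For each 20 nt read it had 19.02 reads of 21 nt, with the others at 4.34 to 8.68. The green leaf of the same event and number had the lowest 21 nt level of its group, 1586 RPM.

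The test of whether the green to red difference differed between ZmUBQ and 35S libraries passed in 3 measures. It cannot tell promoter, target and submission apart. The share of 21 nt changed by 19.4 percentage points more under ZmUBQ. The ratio of 21 to 22 nt changed by 0.74 more on the log2 scale, and the ratio of 21 to 24 nt by 2.55 more. Leaving out 13 of the 16 pairs, each in turn, ended the calls on the share and on the ratio to 22 nt. The call on the ratio to 24 nt was kept on leaving out any pair.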

How the results depend on the processing

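Of 240 values of level, share, strand balance and promoter by colour under alternatives other than omissions, 195 kept direction and side of the threshold, 24 lost the call, 12 gained one and 9 changed sign. Omitting a library kept 654 of 684, omitting an event 255 of 279 and omitting a pair 28 of 48. Differences are log2 for levels and ratios and percentage points for shares, and except where stated the cause was not tested. By edgeR on counts, 10 of 12 comparisons passed in level, and 12 of 12 had the same direction.

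With 1 mean per event there are fewer values to permute. The calls lost were those on the level of fully red over always red (1.08), always green over always red (8.38), dcl1234 over Col-0 (−2.19), ZmUBQ fully green over fully red (5.82), and ZmUBQ over 35S in fully red (−2.05) and always red (−1.56). Calls on the share were lost for green over red parts (4.16), always green over always red (28.1), dcl1234 (−35.4), ZmUBQ fully green over fully red (41.0) and ZmUBQ over 35S always red (−14.9). Calls on strand balance were lost for red parts over fully red (7.72), dcl1234 (−39.1), ZmUBQ fully green over fully red (8.75) and ZmUBQ over 35S always red (−7.06). Values without a call that changed sign were the strand balance of fully red over always red (−0.644) and the ratio to 20 nt of ZmUBQ over 35S fully red (0.044). The ratios and shares within a strand that had passed in always green over always red, dcl1234, ZmUBQ fully green over fully red and ZmUBQ over 35S always red did not pass with 1 mean per event either.

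Relative to RUBY reads outside 21 to 24 nt, the level lost its call for green over red parts (0.59), fully red over always red (0.25), and ZmUBQ over 35S in fully red (−0.33) and always red (−0.47). It changed sign for always green over fully green (−0.60) and for ZmUBQ over 35S fully green (0.023). As a share of 21 to 24 nt reads, fully green over green parts changed sign (−0.762), and ZmUBQ over 35S gained a call in fully green (1.83) and fully red leaves (−19.4). As a share of minus strand reads, green over red parts (0.977) and red parts over fully red (2.69) lost the call, fully red over always red (−3.18) and always green over always red (−2.27) changed sign, and ZmUBQ over 35S fully red gained a call (−26.2).

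With at least 500 reads of 21 nt, strand balance lost the call for red parts over fully red (3.71) and gained one for fully red over always red (3.79) and ZmUBQ over 35S fully red (−7.45). Without libraries under 8 M mapped reads, strand balance gained the same 2 calls (3.79 and −7.45), as did the share of ZmUBQ over 35S fully red (−16.1) and the strand balance of promoter by colour (7.13). Strand balance of green over red parts (−1.17), the ratio to 20 nt of fully red over always red (0.17) and the ratio to 22 nt of always green over fully green (−0.0027) changed sign. Without 2 red parts, MK016 number 5 and MK025 number 1, strand balance of green over red parts was −0.844. Averaging near-identical libraries ended the strand call of red parts over fully red (6.49). A pseudocount of 10 RPM turned the ratio to 20 nt of fully red over always red (0.17) and the ratio to 24 nt of ZmUBQ over 35S fully green (−0.022). On ranks, the difference in mean rank was 2.10 for the ratio to 20 nt of fully red over always red and −0.591 for the strand balance of always green over always red, both of changed sign, while strand balance of ZmUBQ over 35S fully red gained a call (−7.36) and the share of promoter by colour lost its call (5.21).

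With the replicate block, fully green over green parts gained calls in level (0.60) and strand balance (−2.33), as did its ratios to 20 nt (0.42) and 22 nt (−0.051) and its share within the plus strand (2.00), and no other call on level, share or strand balance changed.

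Omitting 1 library, event or pair at a time gave the following ranges for levels, shares, strand balance and promoter by colour that changed a call or sign, and for ratios and shares within a strand that changed sign. Levels of always green over always red lay between 8.14 and 8.65, and those of promoter by colour between −0.27 and 0.76. Shares lay between 24.5 and 30.1 for always green over always red, −6.15 and −0.565 for always green over fully green, 3.42 and 5.72 for green over red parts, −20.4 and −11.4 for ZmUBQ over 35S always red, 0.968 and 2.38 for ZmUBQ over 35S fully green, −20.4 and −8.16 for ZmUBQ over 35S fully red, 36.3 and 48.6 for ZmUBQ fully green over fully red, and 16.7 and 23.96 for promoter by colour. Strand balance lay between −0.281 and 0.343 for always green over always red, −8.32 and −5.09 for always green over fully green, −0.784 and 4.10 for fully red over always red, −0.722 and 2.31 for green over red parts, 3.71 and 8.44 for red parts over fully red, −8.87 and −5.05 for ZmUBQ over 35S always red, −7.45 and −2.93 for ZmUBQ over 35S fully red, 7.10 and 10.3 for ZmUBQ fully green over fully red, and 1.99 and 8.11 for promoter by colour. Ratios to 20 nt lay between −0.95 and 0.12 for always green over fully green, −0.16 and 0.21 for fully red over always red, and −0.45 and 0.038 for ZmUBQ over 35S fully red. Ratios to 22 nt lay between −0.0027 and 0.019 for always green over fully green. Ratios to 24 nt lay between −0.053 and 0.18 for green over red parts and −0.090 and 0.16 for ZmUBQ over 35S fully green. For always green over always red the share within the minus strand lay between −5.22 and 0.679, and for always green over fully green that within the plus strand between −4.84 and 0.432. Calls on ratios and on shares within a strand also changed without a change of sign. The share within the plus strand ranged between 6.26 and 10.7 for green over red parts, 37.8 and 43.1 for always green over always red, and 2.04 and 2.85 for ZmUBQ over 35S fully green. The share within the minus strand ranged between 3.61 and 5.49 for fully green over fully red. Without event MK056, the calls of ZmUBQ over 35S always red on share (−15.4) and strand balance (−8.30) were lost.

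The fully red library MK044 number 3 rests on 77 reads of 21 nt, which limits the precision of its share and strand balance. Comparisons with groups of 1 to 3 events are limited by that number.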
